A study of Arabidopsis thaliana with 12 samples.

Results

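The genes described here are annotated with words for proteins that build, loosen, cut or line the plant cell wall. They were chosen by words in the annotation of the deposited tables, as features described with extensin, expansin, xyloglucan, pectin, pectate, polygalacturonase, arabinogalactan, cellulose synthase or proline-rich, and without the word receptor. This rule uses no measured value. It found 94 transcript clusters, the array's probe groups, among the 2762 in the tables for genes and for exons. All 94 had at least 1 exon in the exon table, and 25 of them were also in the gene table. Most clusters stand for 1 gene and are called genes below where they do, but 4 name 2 loci each, and the loci PGIP1 and AT4G35170 are each named by 2 clusters.

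A growing root cell is held by cellulose fibres tied together by xyloglucan and set in a gel of pectin. Xyloglucan transglucosylases (XTH) cut and rejoin xyloglucan chains, and expansins loosen the wall without cutting it. Pectin methylesterases strip methyl groups from pectin, which decides whether it stiffens with calcium or is open to polygalacturonases and pectate lyases. Extensins, proline-rich proteins and arabinogalactan proteins are the structural and surface proteins of the wall, and several of them are typical of root hairs.

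Roots of Arabidopsis thaliana ecotype Col-0 (wild type, with no transgene) were measured on AraGene-1_0-st arrays in 2 groups, gold-treated and control, with 3 arrays each. Hydroponic seedlings aged 12 days had their roots placed for 12 h in 10 ppm gold, given as HAuClO4 in the labels and as chloroauric acid in the methods, at pH 4.2 and without nutrients, against distilled water of the same pH. Each array was summarized once per gene and once per exon, which makes 12 deposited samples of 6 arrays, and the seedlings of a replicate were pooled. The tables hold, for each group, the authors' bi-weight average of the log2 signal over its arrays, and only features that by the methods changed over 2-fold with an unadjusted p under 0.05, and from these averages no SD, interval or test over arrays could be made. The arrays were not analysed one by one. Differences below are gold minus control on the log2 scale, from signals with 2 decimals, and a feature that is not listed has no value here. In a whole root, fewer cells of a type and less RNA per cell cannot be told apart.

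The annotation words were not fully specific to the wall. A feature described as a xyloglucan enzyme names only the locus of GSH1, which makes a precursor of glutathione. AT2G39050, described as a hydroxyproline-rich glycoprotein, is the lectin EULS3 in RefSeq. The clusters of TPS12, LHT7, GER1 and AT3G06870 each name a second locus, so that their signal cannot be given to 1 gene. They are kept in the counts, as the rule has them. Most other members were taken by their descriptions, and whether each of them acts in the wall was not checked. Only 4 of the 94 clusters are described as extensins.

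At the gene level 15 of the 25 cell wall genes were higher in gold-treated than in control roots and 10 were lower. The share that was higher, 60.0%, was close to that of the whole gene table, 65.4%, and of the features with a description, 66.7%. The differences were small: only XTH29 and XTH11 passed 3-fold, 8.0% of the 25, against 28.8% of all listed genes. Among the higher genes the median difference was 1.21, against 1.39 for all higher genes, and among the lower genes it was -1.115, against -1.24. Read over exons, 94 of the 166 listed exons were higher and 72 lower, a share of 56.6% higher against 54.6% of all exons in the table. The exons past 3-fold were 22.3% of those of the cell wall genes, against 31.8% of all.

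**Figure D1:**
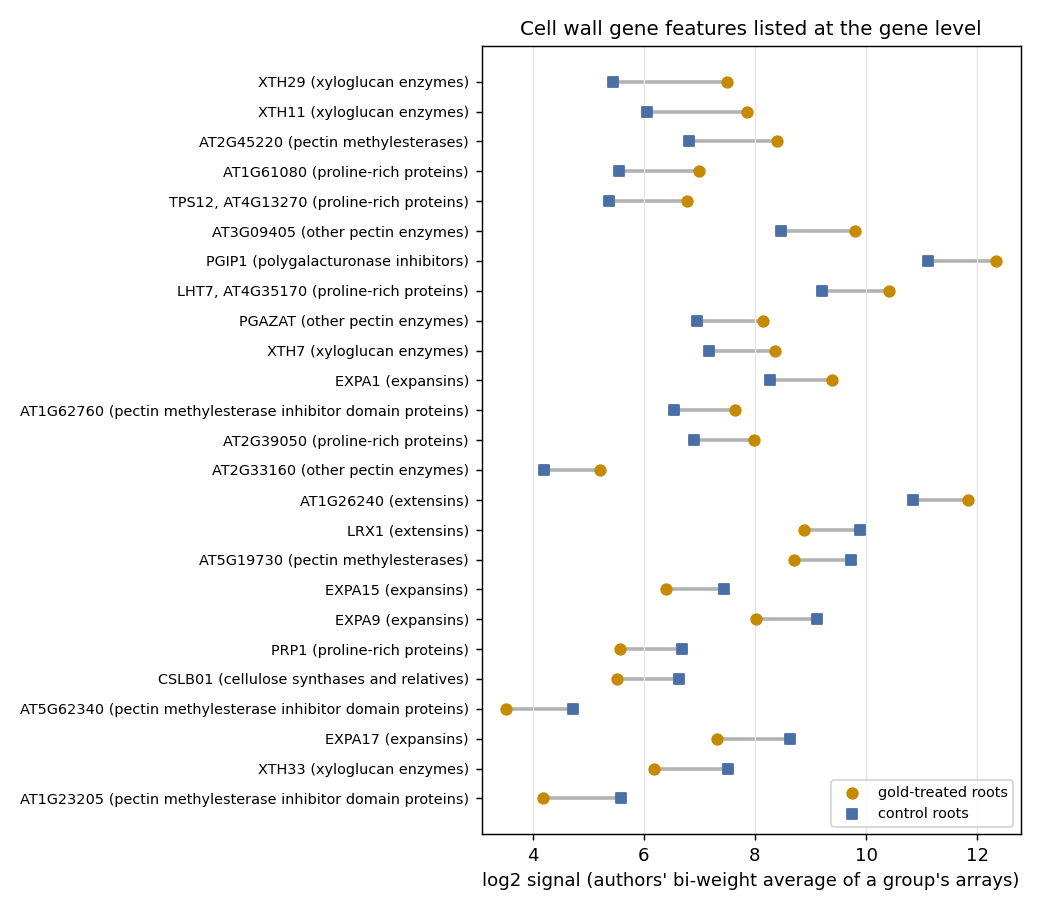
Authors' average log2 signal of the 25 cell wall genes of the gene table in gold-treated roots (circles) and control roots (squares), ordered by the difference, with the role of each gene in brackets. XTH29 stands at the top with 7.5 in gold-treated and 5.44 in control roots, and AT1G23205 at the bottom with 4.19 and 5.58.

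The 94 clusters were evenly divided. In 48 of them every listed exon was higher, in 46 every listed exon was lower, and none had exons in both directions. Over all 2740 clusters with a listed exon, 49.6% had all exons higher and 49.4% all lower. Some role groups leaned to one side. Of the 13 expansin clusters 11 were lower, and of the 5 arabinogalactan clusters 4 were lower, while all 3 polygalacturonase inhibitor clusters, which hold 2 loci, were higher. The proline-rich proteins stood at 11 clusters higher and 6 lower. These are counts over few genes and were not tested.

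**Figure D2:**
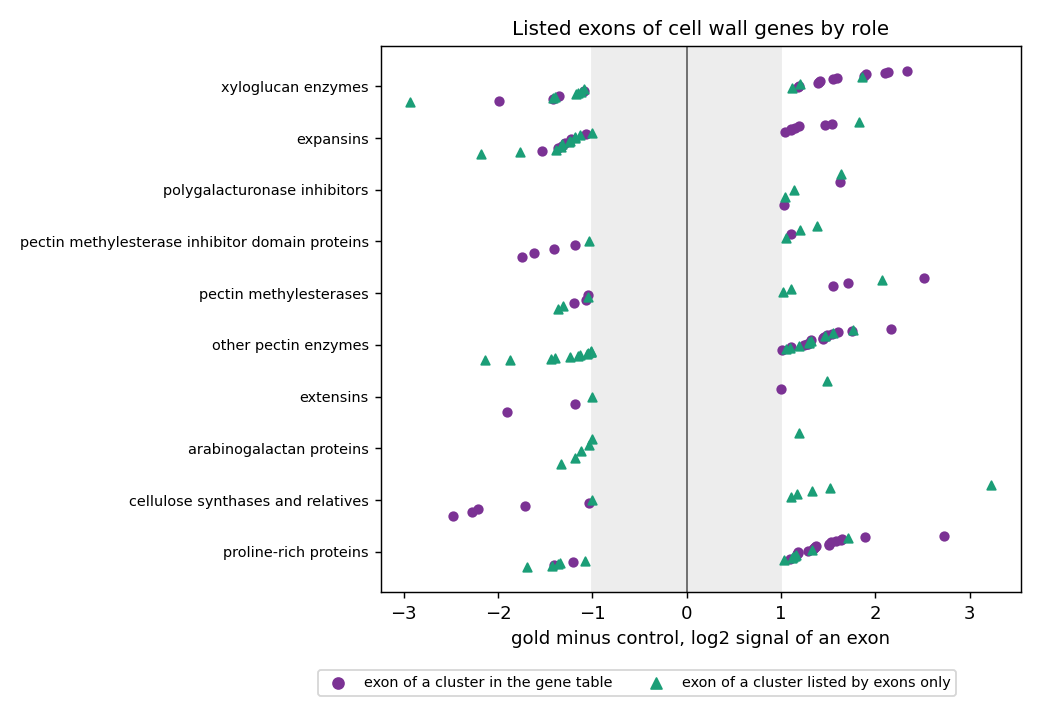
Gold minus control log2 signal of each of the 166 listed exons, by role of the gene. Circles are exons of clusters that are also in the gene table, triangles those of clusters listed by exons only, and the grey band marks differences under 1, which the tables do not list, with 17 of the 25 expansin exons left of it and all 5 of the polygalacturonase inhibitors right of it.

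The xyloglucan transglucosylases held the 2 highest differences of the 25 genes, and also a gene near the low end. XTH29 had a log2 signal of 7.5 in gold-treated roots, against 5.44 in control roots, a difference of 2.06 or 4.17-fold, and ranked 76th of the 800 listed genes counted from the highest difference. XTH11 had 7.85 in gold-treated and 6.05 in control roots, 3.48-fold higher. XTH7 had 8.36 in gold-treated and 7.17 in control roots, 2.28-fold higher. XTH33, an enzyme of the same family, ran the other way, with 6.18 in gold-treated and 7.52 in control roots, 2.53-fold lower. Each of these 4 genes had 4 listed exons, and all had the direction of their gene, with differences of 1.55 to 2.33 in XTH29, 1.41 to 1.9 in XTH11, 1.18 to 1.4 in XTH7 and -1.99 to -1.09 in XTH33.

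More members of this family were listed by exons only. An exon of EXGT-A3 was higher, with 5.5 in gold-treated and 4.3 in control roots, and an exon of XTH32 was higher, with 4.15 and 3.03. Both signals were low, under the level of 6 that is treated as dim here. XTH4 was lower at 2 exons, the brighter with 10.65 in gold-treated and 11.8 in control roots, and XTH26 and XTH2 were lower at 1 exon each, with differences of -1.17 and -1.12. Without the GSH1 feature, the transglucosylases thus stood at 5 genes higher and 4 lower.

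Clusters described as enzymes that make xyloglucan were listed too, and the 3 that were listed were all lower, by 1 exon each. Enzymes of this kind that are not listed have no direction here. CSLC12, of the family that makes the glucan backbone, had 2.13 in gold-treated and 5.06 in control roots. Its difference of -2.93 was the lowest exon difference among the clusters taken by the rule. FUT5, described as a fucosyltransferase that decorates the chain, had 6.07 in gold-treated and 7.49 in control roots. AT5G07720, the xylosyltransferase XXT3 in RefSeq, had 3.69 in gold-treated and 4.78 in control roots. The exons of CSLC12 and AT5G07720 were dim in both groups. This finer grouping was made with the values in view.

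Of the expansins, 4 were in the gene table. EXPA1 was the only one higher, with 9.38 in gold-treated and 8.28 in control roots, 2.14-fold, and all 7 of its listed exons were higher, by 1.04 to 1.54. The other 3 were lower. EXPA17 had 7.31 in gold-treated and 8.64 in control roots, 2.51-fold lower, EXPA9 had 8.02 and 9.11, 2.13-fold lower, and EXPA15 had 6.39 and 7.45, 2.08-fold lower, and each of them had 2 listed exons, all lower.

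A further 9 expansins were listed by exons alone. EXPA10 was higher, at a dim exon with 4.97 in gold-treated and 3.14 in control roots, and the other 8 were lower: EXPA6, EXPA7, EXPA11, EXPA12, EXPA14, EXPA18, EXPB1 and EXPB4. EXPA14 had 9.46 in gold-treated and 10.78 in control roots at the brighter of its 2 exons, and EXPA6 had 8.35 and 9.54. EXPA11 had the lowest exon of the family, with 4.44 in gold-treated and 6.62 in control roots. Over the whole family 9 of 11 alpha expansins and both beta expansins were lower. Of the 25 exons 32.0% were higher, against 54.6% of all listed exons. The higher ones were the 7 exons of EXPA1 and 1 of EXPA10, so this is a share of exons and not of genes. Over the 25 exons the median difference was -1.19, against 1.06 over all listed exons. With no difference under 1 in size listed, these medians mainly show which direction had more exons. Only 2 of the 25 exons, 8.0%, stayed under a log2 signal of 6 in both groups, against 22.3% of all listed exons.

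**Figure D3:**
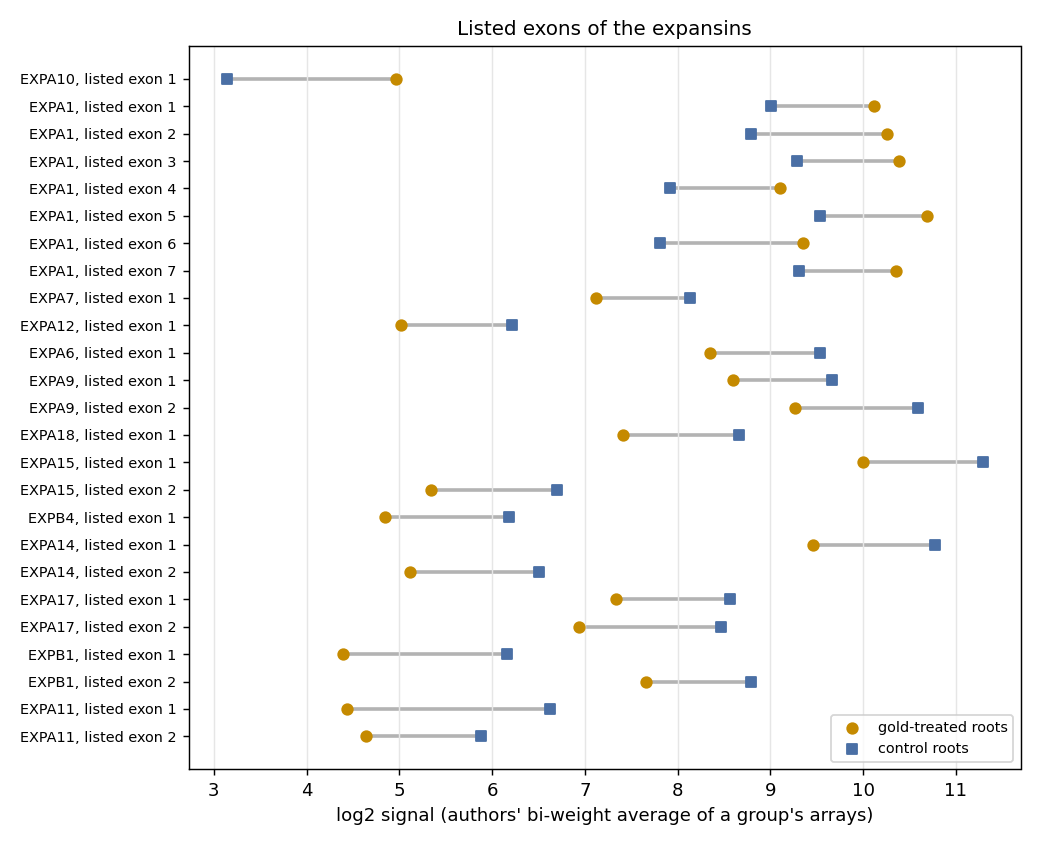
Authors' average log2 signal of the 25 listed exons of 13 expansins in gold-treated roots (circles) and control roots (squares), ordered by the median difference of the gene. EXPA10 and the 7 exons of EXPA1 have the circle on the right, and the other 17 exons have it on the left.

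Pectin methylesterases were split. AT2G45220, described as pectinesterase 17, had 8.39 in gold-treated and 6.81 in control roots, 2.99-fold higher, and its 3 listed exons differed by 1.55, 1.71 and 2.52. AT5G19730, also a pectinesterase by its description, had 8.71 in gold-treated and 9.73 in control roots, 2.03-fold lower, with 3 exons that differed by -1.2 to -1.05. By exons alone, AT2G31425, PME61 and AT1G23200 were higher, and PME44, AT3G10720 and AT2G36700 were lower. The largest of these differences was in AT2G31425, whose description names both an enzyme inhibitor and a pectinesterase, at a dim exon with 4.57 in gold-treated and 2.5 in control roots. The family thus stood at 4 higher and 4 lower.

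Proteins with a pectin methylesterase inhibitor domain, which hold those enzymes or invertases in check, numbered 7 clusters, 4 higher and 3 lower. AT1G23205 was lower, with 4.19 in gold-treated and 5.58 in control roots, 2.62-fold, the lowest difference among the 25 clusters of the gene table. AT5G62340 was lower as well, with 3.52 in gold-treated and 4.73 in control roots, 2.31-fold. AT1G62760 was higher, with 7.64 in gold-treated and 6.54 in control roots, 2.14-fold. Both lower genes were dim as whole genes, but not at all of their listed exons. AT5G62340 had exons at 8.57 in gold-treated and 9.98 in control roots and at 6.88 and 8.63, and AT1G23205 had one at 8.08 in gold-treated and 9.26 in control roots. Genes and exons were summarized separately, so that their levels are not directly comparable. By exons alone, AT2G01610, AT5G46960 and AT1G23350 were higher and AT1G70720 was lower, by 1 exon each and with differences between -1.04 and 1.38.

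Clusters described as polygalacturonases or pectin lyase-like proteins were mostly higher. They were set apart from the pectate lyases and pectin acetylesterases with the values in view. Together these enzymes stood at 10 of 17 clusters higher. That is 58.8%, against 49.6% of all clusters with a listed exon. What each cluster does to pectin was not checked beyond its description. AT3G09405, described as pectin lyase-like, had 9.8 in gold-treated and 8.47 in control roots, 2.51-fold higher. Its 8 listed exons, the most of any cluster taken by the rule, were all higher, by 1.27 to 1.75. PGAZAT, the polygalacturonase ADPG2 known from organ separation, had 8.15 in gold-treated and 6.95 in control roots, 2.3-fold higher, with 6 exons higher by 1.01 to 1.54. AT2G33160, with a polygalacturonase domain, had 5.21 in gold-treated and 4.2 in control roots, 2.01-fold higher, but its only listed exon had 6.0 and 3.83, a difference of 2.17. In all, 5 of 6 clusters described as polygalacturonase were higher, QRT3, AT1G48100 and AT1G43090 among them, and so were 5 of 6 described as pectin lyase-like, with AT1G10640, AT1G56710, AT1G60590 and AT1G80140 listed by exons alone. AT4G13760 and AT1G09550, the 2 exceptions, were dim, with 2.14 in gold-treated and 3.54 in control roots and with 2.65 and 3.67. Some of the higher clusters were dim too. The only listed exon of AT1G43090 had 3.99 in gold-treated and 2.9 in control roots, and that of AT1G56710 had 5.46 and 3.7. AT2G33160 was dim as a whole gene.

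Pectate lyases cleave pectin that has lost its methyl groups, and pectin acetylesterases remove its acetyl groups. All 3 clusters described as pectate lyases and both described as pectin acetylesterases were lower, and all 5 were listed by exons only. Of all 1962 clusters listed by exons only, 1094 were lower throughout. Whether clusters with other descriptions belong to these enzyme families was not checked. AT1G67750, described as pectate lyase 5, was lower at 3 exons, the only cluster listed by exons alone with 3 or more, and the brightest of them had 9.11 in gold-treated and 10.17 in control roots. AT4G13710 had 7.76 in gold-treated and 8.81 in control roots at the brighter of 2 exons. AT5G48900, described as pectate lyase 20, was dim at both of its exons, the brighter with 3.62 in gold-treated and 5.76 in control roots. AT5G26670, an acetylesterase, had 7.91 in gold-treated and 9.06 in control roots at the brighter of 2. This split of the pectin enzymes by description was also made with the values in view.

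Polygalacturonase inhibitors block fungal polygalacturonases. PGIP1 had 12.34 in gold-treated and 11.12 in control roots, 2.33-fold higher, and its exons differed by 1.03 and 1.62. A second cluster names the same locus and had exons higher by 1.04 and 1.64, and PGIP2, the next gene on chromosome 5, had an exon with 8.6 in gold-treated and 7.46 in control roots. Whether probes of either gene also detect the other was not tested.

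The extensins were split between genes. LRX1, a leucine-rich repeat extensin that shapes root hair walls, had 8.89 in gold-treated and 9.9 in control roots, 2.01-fold lower. Its brighter exon had 8.93 in gold-treated and 10.12 in control roots, and a dim one 2.06 and 3.97. LRX2, its close relative, was lower at 1 exon, with 10.34 in gold-treated and 11.34 in control roots. AT1G26240, a proline-rich extensin-like gene, was higher, with 11.84 in gold-treated and 10.84 in control roots, and AT2G15880, described as a pollen-specific leucine-rich repeat extensin-like protein, had an exon with 7.96 in gold-treated and 6.47 in control roots. The differences of AT1G26240 and LRX2 stood right at the limit of the tables, 1.0 in size.

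Arabinogalactan proteins were listed by exons only. AGP12 was higher, with 11.14 in gold-treated and 9.95 in control roots. AGP4 was lower at 2 exons, the brighter with 9.74 in gold-treated and 10.75 in control roots, and AGP22, AGP26 and FLA7 were lower at 1 exon each, by differences of -1.33, -1.04 and -1.19. Thus 4 of the 5 genes were lower.

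Among the proline-rich proteins, PRP1, a root hair wall protein, had 5.57 in gold-treated and 6.68 in control roots, 2.16-fold lower. Both of its listed exons were lower, with 7.58 in gold-treated and 8.99 in control roots and with 7.68 and 8.89. AT1G61080 had 6.99 in gold-treated and 5.56 in control roots, 2.69-fold higher, over 4 exons that were all higher. AT2G39050 (EULS3) had 7.99 in gold-treated and 6.9 in control roots, 2.13-fold higher, over 3 exons. Of 12 clusters that are not of the late embryogenesis abundant type, 6 were higher and 6 lower. Those listed by exons alone ran from AT1G53645, with 3.98 in gold-treated and 5.67 in control roots, to AT1G12810, with 9.26 and 7.55. Between them AT5G09530, AT5G17650 and ESP1 were higher, and AT1G14710, AT4G28160, GER1 and AT3G06870 were lower. ESP1 is counted only for its description as hydroxyproline-rich glycoprotein-like, and a role in the wall was not checked.

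The 5 clusters described as late embryogenesis abundant hydroxyproline-rich glycoproteins, a class that is named for seed proteins but also includes membrane proteins of defence, were all higher. They are a subset of the proline-rich proteins, set apart with the values in view, and 2 of the 5 name the locus AT4G35170. The cluster of TPS12 and AT4G13270 had 6.77 in gold-treated and 5.37 in control roots, 2.64-fold, with 4 exons higher by 1.35 to 2.73. The cluster of LHT7 and AT4G35170 had 10.41 in gold-treated and 9.2 in control roots, 2.31-fold, with 6 exons higher by 1.17 to 1.64. A cluster that names AT4G35170 alone had 1 dim exon with 4.24 in gold-treated and 2.91 in control roots. YLS9, with 11.08 in gold-treated and 9.92 in control roots at 1 exon, and AT5G53730, with 8.32 and 7.19, name 1 locus each.

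The cellulose synthase group was led by a gene whose exons differed more than the whole gene. CSLB01 had 5.51 in gold-treated and 6.63 in control roots as a gene, 2.17-fold lower, but its 5 listed exons ran from -2.48 to -1.04, with a median of -2.21. The lowest of them had 5.37 in gold-treated and 7.85 in control roots. CSLB02, its neighbour on chromosome 2, was lower at 1 exon, with 5.67 in gold-treated and 6.68 in control roots. The other 5 clusters were higher, each by 1 exon. CSLG2 had 7.57 in gold-treated and 4.34 in control roots. Its difference of 3.23 was the highest exon difference among the clusters taken by the rule. The neighbour of CSLG2, CSLG3, had 5.49 in gold-treated and 4.38 in control roots. CSLB06 and CSLE1 were higher as well, by 1.33 and 1.17. CESA4, a catalytic subunit of cellulose synthesis in secondary walls, had 7.08 in gold-treated and 5.56 in control roots.

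**Figure D4:**
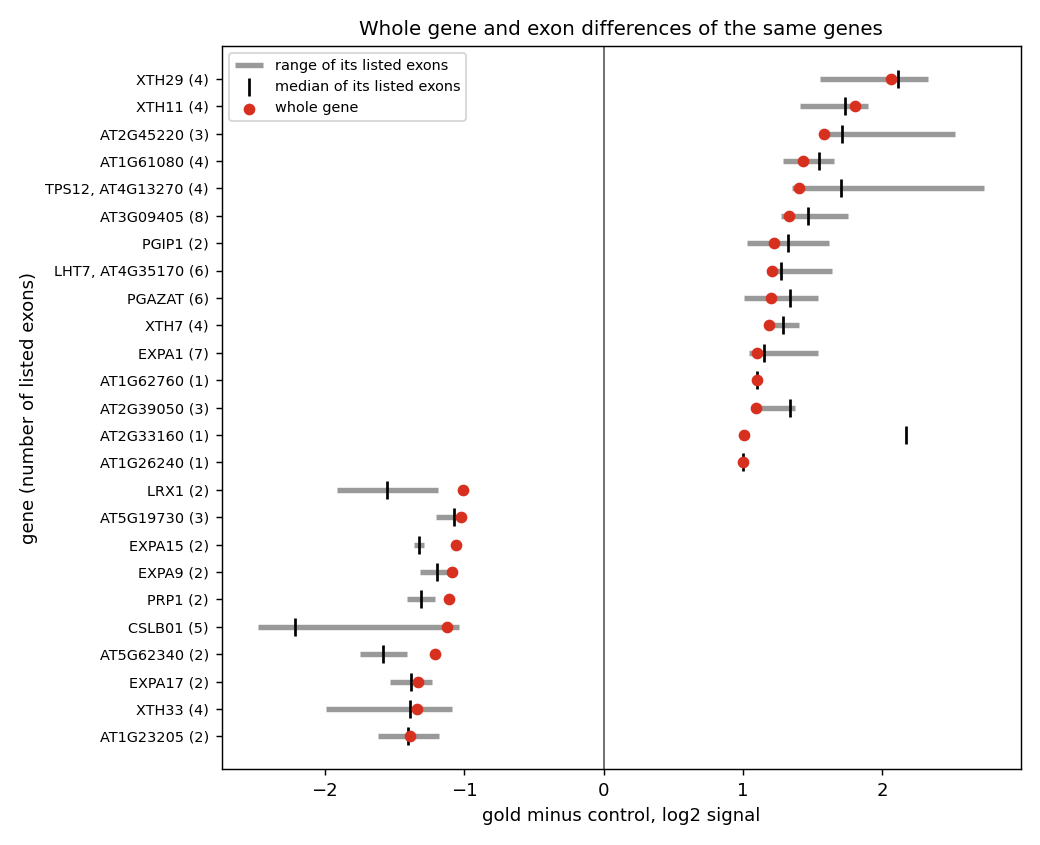
Gold minus control log2 signal of the 25 cell wall genes as whole genes (circles), with the median (tick) and the range (bar) of their listed exons, whose number is in brackets. The exon median lies farthest from the gene in AT2G33160, with 2.17 against 1.01 and a single listed exon, and in CSLB01, with -2.21 against -1.12.

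In all 25 clusters that are in both tables every listed exon had the direction of the whole cluster. In the whole series only 1 of 778 clusters in both tables had exons in both directions. Whether those exons had the direction of their gene was not compared there. The exon table lists only exons past 2-fold, so that exons of these genes with smaller differences are not seen. Of these 25 clusters 22 had 2 or more listed exons, and 3 had 1. Of the 69 clusters listed by exons alone, 57, or 82.6%, had a single listed exon, against 78.1% of all clusters listed by exons alone. A cluster of PGIP1 and a cluster of AT4G35170 are among the 69, although these loci are also named in the gene table. Of their exons 30.5% were under a log2 signal of 6 in both groups, against 7.14% for the clusters in both tables, and over the whole exon table these shares were 32.7% and 10.5%. Of their exons 43.9% were higher, against 69.0% for the clusters in both tables, and over the whole exon table these shares were 42.0% and 68.9%. Neither contrast was tested for cell wall genes against the rest.

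Because LRX1, LRX2, PRP1, EXPA7 and EXPA18 are root hair wall genes, a list of 16 root hair loci was looked up in both tables. Of these, 10 were listed, with 14 exons, and all 14 were lower in gold-treated roots, while the other 6 loci have no listed feature. Only 2 of the 10, LRX1 and PRP1, were in the gene table, with differences of -1.01 and -1.11. The rest of the 10 were listed by exons alone, most of them by 1 exon. The 5 of the 10 that are not cell wall genes by the rule are the transcription factors RSL4 and RSL2, the kinases IRE and PIP5K3, and COBL9, all known from root hair growth. RSL4 had an exon with 6.2 in gold-treated and 7.25 in control roots, RSL2 one with 4.73 and 6.01, and COBL9 one with 7.69 and 9.17. Over all clusters with a listed exon 49.4% were lower throughout, as given above. The list was drawn up with results of these data known and its direction was not tested. Of 2 loci of the hairless epidermal cells, WER was lower too, with 7.18 in gold-treated and 8.23 in control roots, and none of 5 shoot marker loci was listed. The tables hold only features past the authors' thresholds, so the level of root markers as such could not be checked. Of the 11 expansin clusters outside the root hair list 9 were lower, a split made with the values in view. Whether any of these 11 act in root hairs was not checked, and no cause was tested.

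**Figure D5:**
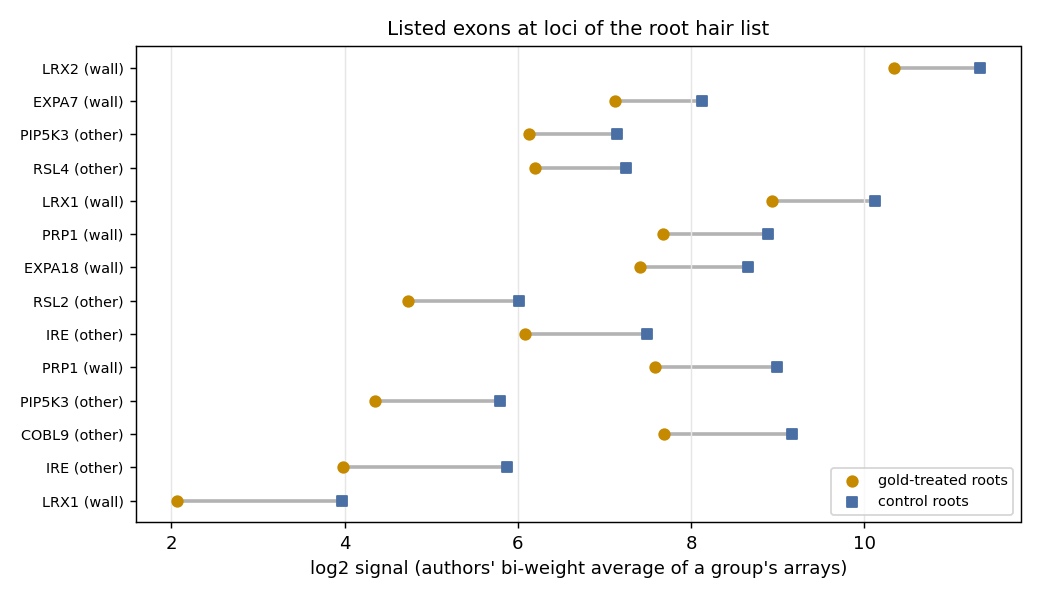
Authors' average log2 signal of the 14 listed exons at 10 loci of the root hair list in gold-treated roots (circles) and control roots (squares), with wall marking the 5 loci that are cell wall genes by the rule. In every exon the gold-treated roots have the lower signal, from LRX2 with 10.34 and 11.34 to the dim exon of LRX1 with 2.06 and 3.97.

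Other wall genes outside the rule, found by a list of words such as callose, laccase, endoglucanase and trichome birefringence, numbered 8 in the gene table, 4 higher and 4 lower. The 2 highest were CCOAMT, a methyltransferase of lignin building blocks, with 7.82 in gold-treated and 5.56 in control roots, and TBL4, of a family that acetylates wall polymers, with 6.57 and 4.4. The 2 lowest were GSL09, a callose synthase, with 4.49 in gold-treated and 6.12 in control roots and 12 listed exons, and GH9B5, an endoglucanase, with 6.39 and 7.77. By exons, 37 such clusters were listed, 12 higher, 24 lower and 1 in both directions. Over all clusters with a listed exon 49.6% were higher and 49.4% lower throughout, and 65.4% of the gene table was higher. The lower clusters include COBL9, which is also on the root hair list. These counts were not tested.

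Cell wall genes that lie close together in the genome did not always run the same way. The neighbours CSLB01 and CSLB02 were both lower, and CSLG3 and CSLG2 and the PGIP genes were higher in each pair. AT3G09405, described as pectin lyase-like, was higher. AT3G09410, the next gene on chromosome 3, is described as a putative pectin acetylesterase. It had a lower exon, with 6.18 in gold-treated and 7.31 in control roots. Whether AT3G09405 and AT3G09410 belong to the same enzyme family was not checked. On chromosome 1 the pectinesterase AT1G23200 had an exon with 6.83 in gold-treated and 5.81 in control roots, while AT1G23205, an inhibitor domain gene 1 gene away, was lower. Gene order is that of the TAIR10.1 annotation.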

How the data were processed

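Total RNA of roots was hybridised by the authors to AraGene-1_0-st arrays, 3 per group. The authors exported probe intensities with AGCC 3.2.4 and summarized them with RMA in Expression Console 1.3, and the deposited log2 signals are bi-weight averages over the arrays of a group made in the Transcriptome Analysis Console on the tair10 annotation. RMA brings all arrays to one distribution, so values are relative within an array. The deposited tables also hold the authors' fold changes, p-values and FDR, which were not used. Groups were taken from sample titles. Differences, counts and medians were computed from the group averages with Python 3.11.15 and pandas 2.3.3, and the rule and counts were tested on simulated data. With only group averages used no test was made, and the number of arrays limits the precision. Members and gene lists were chosen with earlier results of these data known. Named genes are all 25 members of the gene table, members listed only by exons with 3 or more exons or the largest difference of their role, the root hair genes, and the 2 highest and 2 lowest other wall genes; further members were named after their values were seen. All 96 loci named by members were found in the TAIR10.1 gene table, used for names and gene order only. Promoter and protein sequences were not analysed here. Alternatives were a fold of 3, a log2 signal of at least 6 in the brighter group, single-locus features, equal signals counted once, other word rules and joining exons by locus.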

Additional observations from a re-analysis of the deposited data

How the results depend on the processing

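Counts were taken as moved where they differed by over 1.5 times. A fold of 3 in place of 2 left 2 genes higher and 0 lower, 23 exons higher and 14 lower, and 16 clusters higher and 11 lower. Leaving out clusters with a single listed exon, chosen after seeing the data, left 61 exons higher and 45 lower. Under the other settings, which were a log2 signal of at least 6, features that name 1 locus, equal signals counted once, no features matched by proline-rich alone, no inhibitors, receptor descriptions kept in and exons joined by locus, each count stayed within 1.5 times, wherever the setting was tried, and 0 clusters had exons in both directions with a fold of 3, with the signal floor or with exons joined by locus. No paired analysis was possible because the values used are 1 average per group. For the same reason no array was left out, and the spread between arrays was not analysed here. The filter of the tables hides changes under 2-fold, so that a family's unlisted members have no direction here.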
